A study of Trichoderma reesei with 36 samples.

Results

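PMH29 (ID 122523) and the transcription factors with IDs 121121, 72780 and 104061 are 4 of the 9129 genes counted in Trichoderma reesei Rut-C30, a hyperproducing strain of this cellulase-secreting mould. They were selected on their responses to the sugar feed in these same libraries: PMH29 and ID 104061 were listed among genes lower on lactose, IDs 121121 and 72780 among genes higher on lactose. Differences between feeds are therefore given below as a description, without a test, and only the change with time was tested. All 4 genes occur in every file, and all 4 passed the filter on low counts, as did 8347 genes in all.

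In T. reesei, cellulase genes are switched on by inducers such as lactose, a disaccharide of glucose and galactose, and are kept low by glucose. The switch runs through transcription factors, proteins that bind promoters, of which XYR1 is needed for most cellulase and hemicellulase genes and ACE3 is an activator of cellulase genes. PMH29 and many other fungal regulators belong to the Zn(2)Cys6 class, which binds DNA through a zinc cluster, and PMH29 has been linked to cellulase production in other strains of this species. ID 72780 is annotated as a putative bZIP factor, a class that binds DNA as a dimer held by a leucine zipper. ID 121121 is annotated as a putative factor related to STB4, a name from baker's yeast for a regulator tied to transporters, and ID 104061 only as a putative transcription factor.

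Every culture was of strain Rut-C30, which lacks full carbon catabolite repression by CRE1. Each was first grown on glucose, and the broth was then divided over flasks that received a slow feed of pure glucose (G100), pure lactose (L100), 90% glucose with 10% lactose (G90-L10) or 75% glucose with 25% lactose (G75-L25). RNA was taken after 24 h and after 48 h of feeding. There are 6 libraries of G100 and 6 of L100 at each time, 4 of G75-L25 and 2 of G90-L10, or 36 libraries in 8 groups. The labels call the cultures independent repeats, but name no culture, so that flasks from the same broth could not be matched, replicate numbers here are names only, and any spread between broths stays in the error of each test.

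Total counts ran from 9955798 to 49808747 per library, and the 29 genes that the strain is listed as having lost had 0 counts in every library. Levels are given as CPM, counts scaled to library size with TMM factors, a scaling that corrects for a few very abundant transcripts taking up much of a library. Labels of the pure feeds start with 2014 and those of the mixtures with 2015, so feed and label year cannot be told apart when a mixture is set against a pure feed. As these are bulk samples, fewer expressing cells and less RNA per cell cannot be told apart either. In 3 libraries the values of some members stand apart from the rest of their group. The library labelled L100 48 h replicate 3 had 4154 CPM of the cellobiohydrolase CBH1, the main secreted cellulase, against 159400 to 206500 CPM in the other L100 libraries at 48 h and 4576 to 14730 CPM on G100. The other 2 are replicate 4 of G75-L25 at 24 h and replicate 4 of G75-L25 at 48 h. Results that rest on these libraries are given with all 36 and with the other 33.

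The 4 factors lie far apart in abundance. Per kb of gene span in the RefSeq annotation of strain QM6a, the median level on G100 at 24 h was 86.8 CPM per kb for PMH29, 12.4 for ID 121121, 5.06 for ID 72780 and 0.91 for ID 104061. PMH29 thus had a higher level per kb than 86.7% of the genes with a known span, and ID 104061 than 7.16% of them. On L100 at 24 h the order of the upper pair turned. ID 121121 then had 63.5 CPM per kb, PMH29 30.6, ID 72780 12.3 and ID 104061 0.30.

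**Figure D1:**
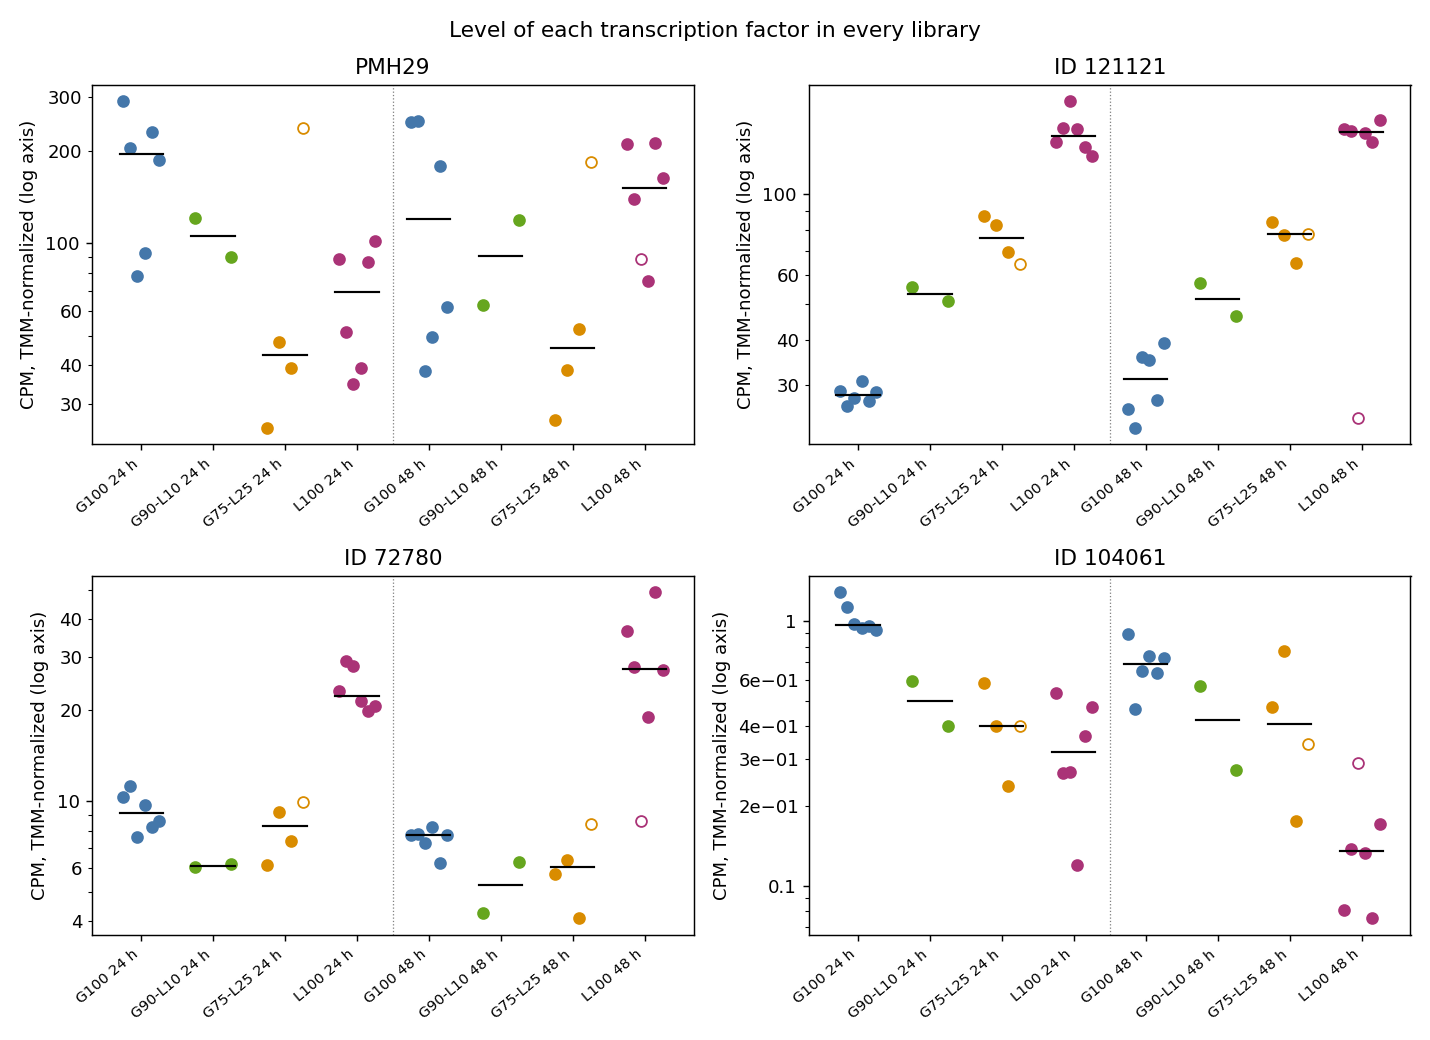
Level of each factor in all 36 libraries (TMM-normalized CPM, log axis) over the 8 groups of feed and time; each point is a library, the bar is the group median, and open points are the 3 libraries that stand apart. ID 121121 climbs with the share of lactose, ID 72780 is high on pure lactose alone, ID 104061 is highest on pure glucose, and PMH29 spreads widely within most groups.

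PMH29 was lower on both mixtures than on glucose in the group medians, and lower on lactose at 24 h but not at 48 h. On G100 at 24 h it ran from 78.3 to 292 CPM with a median of 196 (n = 6). On L100 at 24 h it ran from 34.8 to 102 CPM with a median of 69.3 (n = 6), so the ranges of the pure feeds overlapped. The 2 libraries of G90-L10 had 121 and 90.2 CPM at 24 h, inside the range of G100. On G75-L25 at 24 h the libraries had 25.0, 47.6, 39.1 and 238 CPM. Of these, 3 lay below every G100 library, while replicate 4 was as high as the upper G100 libraries.

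The log2 fold change of PMH29 at 24 h was -1.43 ± 0.54 (SE) on L100 against G100. For G90-L10 it was -0.78 ± 0.79, and for G75-L25 -1.05 ± 0.61. Without the 3 libraries the last value was -2.28 ± 0.57, a 4.86-fold lower level, and PMH29 on G75-L25 then lay 1.51 ± 0.64 (log2) below G90-L10, a comparison within 1 label year. Replicate 4 alone thus moved the G75-L25 value by more than 1 SE. It was left out with its high PMH29 level known, so a lower level without it follows from that choice. Against L100 at 24 h replicate 4 turned the sign, from 0.38 ± 0.59 with all libraries to -0.85 ± 0.53 without the 3.

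At 48 h the order of the feeds changed for PMH29. L100 held 75.5 to 214 CPM with a median of 152 (n = 6), and G100 held 38.2 to 251 CPM with a median of 120.4 (n = 6). G90-L10 had 63.0 and 120 CPM. G75-L25 had 26.4, 38.7, 52.4 and 185 CPM, where replicate 4 stood above the others. Whether the libraries named replicate 4 at 24 h and 48 h came from the same flask is not known. On L100 against G100 the log2 fold change was 0.11 ± 0.53, and it turned to -0.55 with scaling by library size alone. On G75-L25 against G100 it was -0.87 ± 0.61, or -1.81 ± 0.55 without the 3 libraries. Against L100 at 48 h, G75-L25 was lower by a log2 fold change of -0.98 ± 0.61. Without the 3 libraries this was -2.03 ± 0.57, and the ranges no longer overlapped. Replicate 4 of G75-L25 at 48 h was also left out with its PMH29 level known, so the lower values without it follow from that choice.

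ID 121121 followed the share of lactose at both times and spread little at 24 h. At 24 h it had 26.3 to 30.9 CPM on G100 with a median of 28.2 (n = 6). G90-L10 had 55.8 and 50.9 CPM, and G75-L25 had 86.9, 82.2, 69.5 and 64.4 CPM. L100 held 127 to 179.5 CPM with a median of 144.5 (n = 6). No 2 of these 4 groups overlapped, so the order G100, G90-L10, G75-L25, L100 held library by library. Of all genes tested, 43.5% had no overlap between L100 and G100 at 24 h. The share of genes in the full order was not counted, and G90-L10 has only 2 libraries. The log2 fold changes against G100 were 0.92 ± 0.31, 1.42 ± 0.25 and 2.38 ± 0.24 in that order of feeds, the last a 5.20-fold higher level.

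At 48 h the steps of ID 121121 were the same. G100 held 23.0 to 39.1 CPM with a median of 31.3 (n = 6), G90-L10 had 57.2 and 46.3 CPM, and G75-L25 had 83.8, 77.2, 65.0 and 78.0 CPM. On L100, 5 libraries held 139 to 159.6 CPM, and the library labelled L100 48 h replicate 3 had 24.4 CPM, at the level of G100. The log2 fold change of L100 against G100 was 2.04 ± 0.24 with that library and 2.26 ± 0.11 without the 3 libraries. For G90-L10 and G75-L25 it was 0.74 ± 0.31 and 1.29 ± 0.25. The step between the mixtures, which share a label year, was 0.51 ± 0.35 at 24 h and 0.55 ± 0.35 at 48 h. There was no overlap at either time, between 2 libraries and 4. The share of all genes without overlap between the mixtures was not counted.

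ID 72780, the bZIP factor, was higher on pure lactose and not on the mixtures. At 24 h it held 7.61 to 11.2 CPM on G100 with a median of 9.16 (n = 6) and 19.9 to 29.1 CPM on L100 with a median of 22.3 (n = 6). The 2 libraries of G90-L10 had 6.06 and 6.19 CPM, below every G100 library. G75-L25 had 6.16, 9.25, 7.38 and 9.94 CPM, which overlapped G100 and stayed below every L100 library. The log2 fold change against G100 was 1.36 ± 0.24 for L100, -0.60 ± 0.35 for G90-L10 and -0.18 ± 0.27 for G75-L25. With scaling by library size alone these were 0.77, -0.75 and -0.57.

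The same split of ID 72780 was present at 48 h. G100 held 6.23 to 8.21 CPM with a median of 7.72 (n = 6), G90-L10 had 4.25 and 6.31 CPM, and G75-L25 had 5.73, 6.41, 4.09 and 8.43 CPM. L100 held 8.61 to 49.3 CPM with a median of 27.5 (n = 6), where the lowest value is that of the library labelled L100 48 h replicate 3 and the next was 19.0 CPM. Against G100, L100 was higher by a log2 fold change of 1.90 ± 0.24 (2.09 ± 0.17 without the 3 libraries). G90-L10 and G75-L25 differed from G100 by -0.50 ± 0.35 and -0.28 ± 0.27. G75-L25 against L100 gave -1.54 ± 0.28 at 24 h and -2.18 ± 0.28 at 48 h, with no overlap at either time. Of all genes tested, 1.35% had these signs (both mixtures below G100 and L100 above it, at both times), and ID 72780 was 1 of those 113 genes. None of the other 3 members was. The members were selected on these feed differences, so nothing is read from this share. For ID 72780 the differences of G75-L25 from G100 were also no larger than about 1 SE with all 36 libraries. Without the 3 libraries they were -0.29 ± 0.21 at 24 h and -0.47 ± 0.21 at 48 h, both larger than 1 SE.

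ID 104061 was lower on every feed with lactose, at few reads. Its counts ran from 21 to 34 per library on G100 at 24 h, or 0.922 to 1.29 CPM with a median of 0.966 (n = 6). On L100 at 24 h it had 3 to 12 counts, or 0.120 to 0.536 CPM with a median of 0.319 (n = 6). G90-L10 had 0.591 and 0.402 CPM, and G75-L25 had 0.585, 0.402, 0.238 and 0.400 CPM. All libraries with lactose at 24 h thus lay below all G100 libraries. The log2 fold change against G100 was -1.05 ± 0.43 for G90-L10, -1.34 ± 0.34 for G75-L25 and -1.68 ± 0.32 for L100.

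At 48 h the mixtures overlapped G100 for ID 104061, while L100 lay below it. G100 held 0.467 to 0.893 CPM with a median of 0.687 (n = 6), G90-L10 had 0.570 and 0.272 CPM, and G75-L25 had 0.472, 0.769, 0.175 and 0.342 CPM. On L100, 5 of 6 libraries had 3 counts or fewer, taken here as the floor below which a level is not resolved, and the library labelled L100 48 h replicate 3 had 9 counts. The log2 fold change of L100 against G100 was -2.09 ± 0.35 with all 6 libraries. Without replicate 3 every L100 library was at the floor, so that the level there was at least 4.34-fold lower than the G100 mean, with the floor of 3 counts taken per library. G75-L25 and G90-L10 differed from G100 by -0.63 ± 0.34 and -0.68 ± 0.45.

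**Figure D2:**
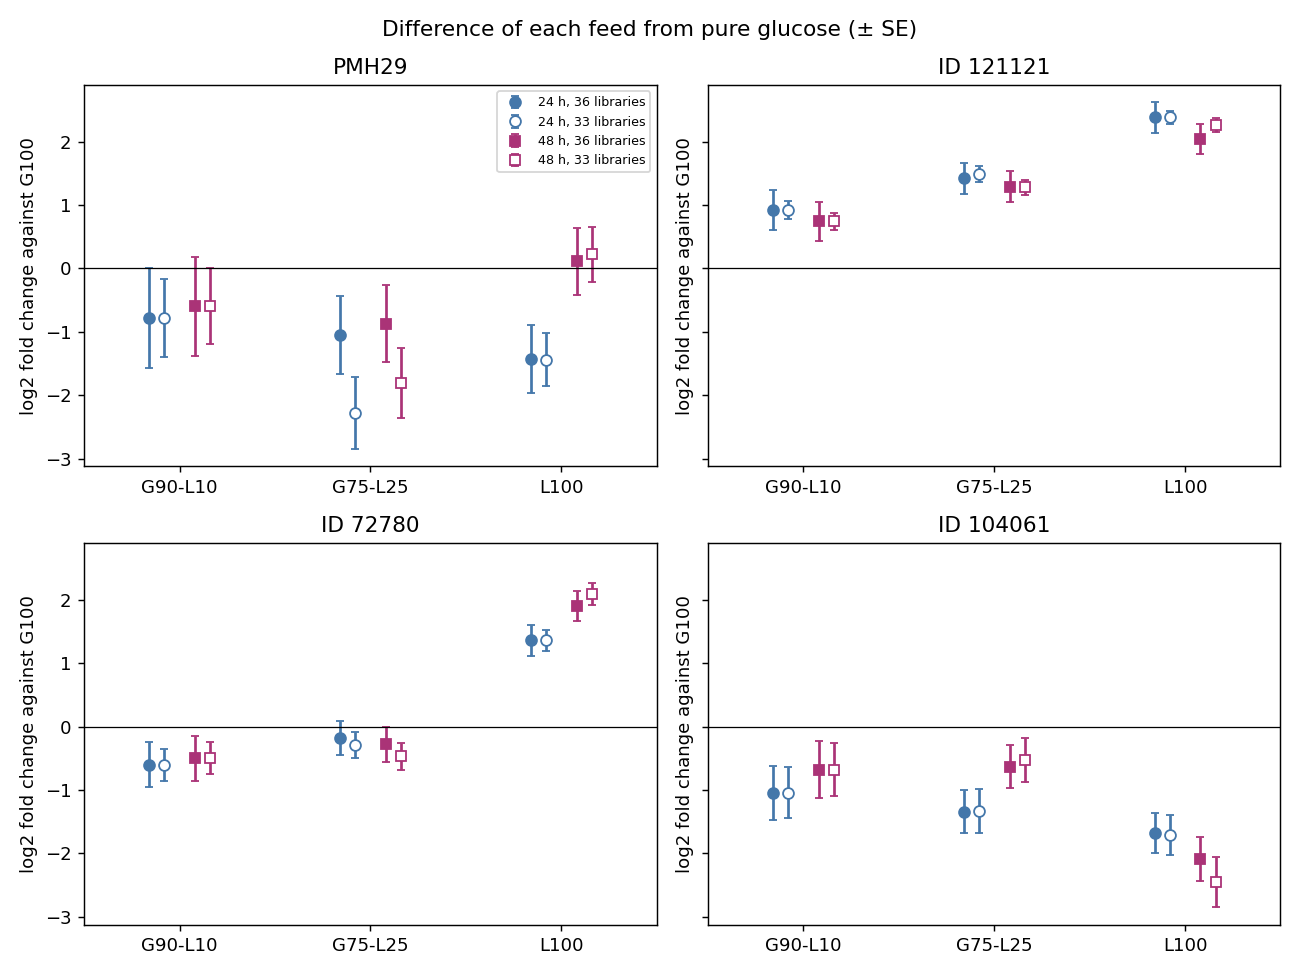
Log2 fold change of each factor against G100 (vertical axis, ± SE) on G90-L10, G75-L25 and L100, at 24 h (circles) and 48 h (squares), with all 36 libraries (filled) and with 33 (open). ID 72780 lies below 0 on both mixtures and above 0 on L100, and PMH29 on G75-L25 moves from -1.05 to -2.28 at 24 h when the 3 libraries are left out.

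These overlaps can be set beside those of all genes, although the members were selected on the same contrasts and nothing is read from their share. Between L100 and G100 at 24 h, 3 of the 4 members had no overlap, as did 43.5% of the genes tested. At 48 h it was 2 members and 12.9% of genes with 36 libraries, and 3 members and 45.0% with 33. Between G75-L25 and G100 it was 2 members and 38.7% of genes at 24 h (3 and 45.9% with 33 libraries), and 1 member and 29.1% at 48 h (1 and 33.7% with 33). Between G75-L25 and L100 it was 2 members and 14.4% at 24 h (2 and 26.5% with 33), and 1 member and 7.60% at 48 h (4 and 39.5% with 33). For comparisons with G90-L10, which has 2 libraries at each time, the share of all genes was not counted. Scaling by library size alone moved the middle value of the L100 to G100 differences over all genes by -0.59 (log2) at either time. G75-L25 shifted by -0.37 and then -0.32 at the later time, G90-L10 by -0.15 and then -0.10. Among the members' differences from G100, only that of PMH29 on L100 at 48 h changed sign under this scaling.

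Whether the factors changed with the length of the feed was tested by comparing 48 h with 24 h within each feed, with edgeR's quasi-likelihood test and Benjamini-Hochberg adjustment over all genes tested. With all 36 libraries, 0 of the 4 members passed an adjusted p of 0.05 on any feed. At an unadjusted p below 0.05 it was 1 member on G100, 2 on L100 and 0 on each mixture, and DESeq2 called 0 members on every feed. Of all genes, 9.33% were called on G100, 19.6% on L100, 0.264% on G75-L25 and 0.0958% on G90-L10.

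On L100 the level of PMH29 differed by 1.15 ± 0.54 (log2, 48 h against 24 h, n = 6 and 6, edgeR adjusted p = 0.13). Without the 3 libraries the difference was 1.26 ± 0.43, with an edgeR adjusted p of 0.0253. That value depends on PMH29's own levels, since 2 of the 3 libraries are of G75-L25, where PMH29 stands apart, and enter this comparison through the shared spread alone. Without L100 48 h replicate 3 alone the edgeR adjusted p of PMH29 was 0.0849. On G100 the difference was -0.39 ± 0.53 and its edgeR adjusted p was 0.728. The difference between the feeds was not tested.

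ID 104061 had a lower level at 48 h than at 24 h on both pure feeds. On G100 every library at 48 h (13 to 25 counts) lay below every library at 24 h (21 to 34 counts) in CPM. The share of all genes separated in this way was not counted. The log2 fold change was -0.60 ± 0.28, with an edgeR adjusted p of 0.189, which became 0.0157 when only the G100 libraries were fitted. On L100 the log2 fold change was -1.02 ± 0.39, with an edgeR adjusted p of 0.0907. Without the 3 libraries the L100 difference passed the threshold (edgeR adjusted p = 0.0226), as it did without L100 48 h replicate 3 alone (edgeR adjusted p = 0.0208). All 5 libraries then left at 48 h were at the floor, and the 24 h mean was 2.15-fold that floor. This is no firm lower bound, since 2 of the 6 L100 libraries at 24 h were at the floor as well. With these 33 libraries 2 members were called on L100, PMH29 and ID 104061, beside 33.0% of all genes. Their directions were opposite.

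IDs 121121 and 72780 gave no call on any feed with either set of libraries. The change of ID 121121 lay between -0.20 ± 0.23 on L100 and 0.14 ± 0.23 on G100, and without the 3 libraries it was 0.02 ± 0.11 on L100. ID 72780 differed by 0.24 ± 0.23 on L100 (edgeR adjusted p = 0.504), or by 0.42 ± 0.17 without the 3 libraries (edgeR adjusted p = 0.0539). On G100 it differed by -0.31 ± 0.24 (edgeR adjusted p = 0.458), which became 0.0446 when only the G100 libraries were fitted.

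**Figure D3:**
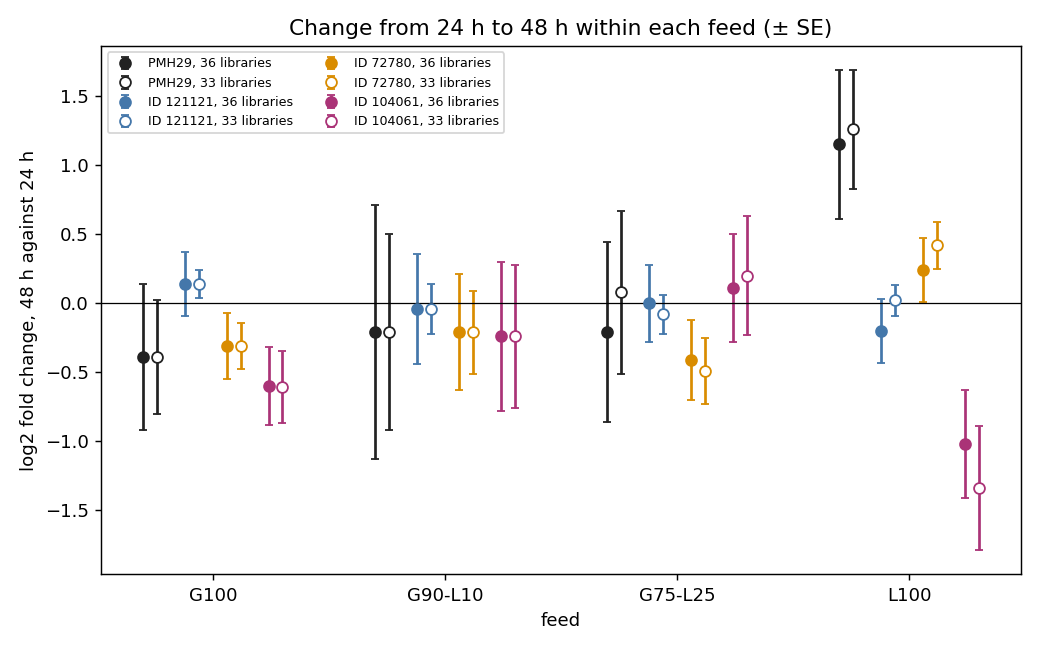
Log2 fold change from 24 h to 48 h (vertical axis, ± SE) of each factor within each feed, with 36 libraries (filled) and 33 (open). On L100, PMH29 lies at 1.15 and 1.26 and ID 104061 at -1.02 and -1.34, while the error bars on the mixtures span 0 for every factor except ID 72780 on G75-L25.

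The other 20 transcription factors that were listed with these 4 give the setting; 19 of them are in the files and were tested. On G100, 0 rose and 1 fell with time at an edgeR adjusted p below 0.05, the Zn(2)Cys6 factor ID 105520 (log2 fold change -1.08 ± 0.24, edgeR adjusted p = 0.00353), and DESeq2 called 1 in each direction. With 33 libraries 4 rose and 1 fell on G100, although no G100 library was left out. The 4 were XYR1 (log2 fold change 0.44, edgeR adjusted p = 0.00705), CLR2 (0.62, 0.00144), ID 59740 (0.78, 0.00491) and ID 105805 (2.29, 0.0216), the last pair being putative Zn(2)Cys6 factors named after their values were seen. On L100, 1 rose and 1 fell. ACE3 (ID 77513) fell by 1.18 on the log2 scale (SE 0.21, edgeR adjusted p = 0.000327), and ID 123713, annotated as the developmental regulator MedA or acon-3, rose by 1.57 ± 0.54 (edgeR adjusted p = 0.0401). The latter rested on the library labelled L100 48 h replicate 3, since without the 3 libraries its change was -0.15 (edgeR adjusted p = 0.654). With 33 libraries 2 rose and 4 fell on L100. YPR1 and ID 73792 rose, by 1.12 and 0.75 on the log2 scale, and ACE3, ID 60565, WetA and res-1 fell, with log2 fold changes of -1.01, -0.76, -0.63 and -0.59. With all 36 libraries WetA and res-1 had the other sign, at 0.34 and 0.26, short of the threshold. On each mixture 0 of the 19 were called, against 2 on G75-L25 and 1 on G90-L10 with an unadjusted p below 0.05, and DESeq2 called 0 on both. With 33 libraries it was 0 on G90-L10, and on G75-L25 ID 59740 rose (log2 fold change 1.07, edgeR adjusted p = 0.0387) and ACE3 fell (-0.74, edgeR adjusted p = 0.0459). The median log2 fold change of the 19 was 0.13 on G100 and 0.26 on L100, beside medians over all genes of -0.009 and 0.011. Without the 3 libraries the L100 median was -0.26.

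PMH29 also differed among libraries that share feed and time. On G100 its SD on the log2 CPM scale was 0.757 at 24 h and 1.23 at 48 h, larger than that of 97.8% and 99.3% of the genes tested, whose median SDs were 0.128 and 0.147. On L100 at 24 h its SD was 0.666, larger than that of 96.2% of genes. On G75-L25 it was 1.42 at 24 h with 4 libraries and 0.475 without replicate 4, still larger than that of 95.7% of genes. ID 121121 was the steadiest of the members at 24 h on G100, with an SD of 0.081, smaller than the median gene. At 48 h its SD on G100 was 0.308, larger than that of 79.4% of genes. On L100 at 48 h it was 1.065, or 0.071 without the library labelled L100 48 h replicate 3. The G100 libraries of PMH29 at 48 h fell into 3 at 179 to 251 CPM and 3 at 38.2 to 62.2 CPM.

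The beta-glucosidase BGL1 (ID 76672), which splits cellobiose into glucose, moved against PMH29 within groups. With the mean of its group taken from each library, the log2 CPM of the pair had a Pearson r of -0.85 over 36 libraries (-0.84 over 33). In replicate 4 of G75-L25 at 24 h, where PMH29 had 238 CPM, BGL1 had 42.2 CPM against 194 to 303 CPM in the other 3 libraries. At 48 h replicate 4 had 22.4 CPM of BGL1 against 83.2 to 125 CPM. Libraries share their depth, scaling and broths, and possibly flasks, so this r is a description. BGL1 was named after its value was seen, and the paper had already set it beside PMH29 from these libraries. A strong r thus follows in part from that choice.

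**Figure D4:**
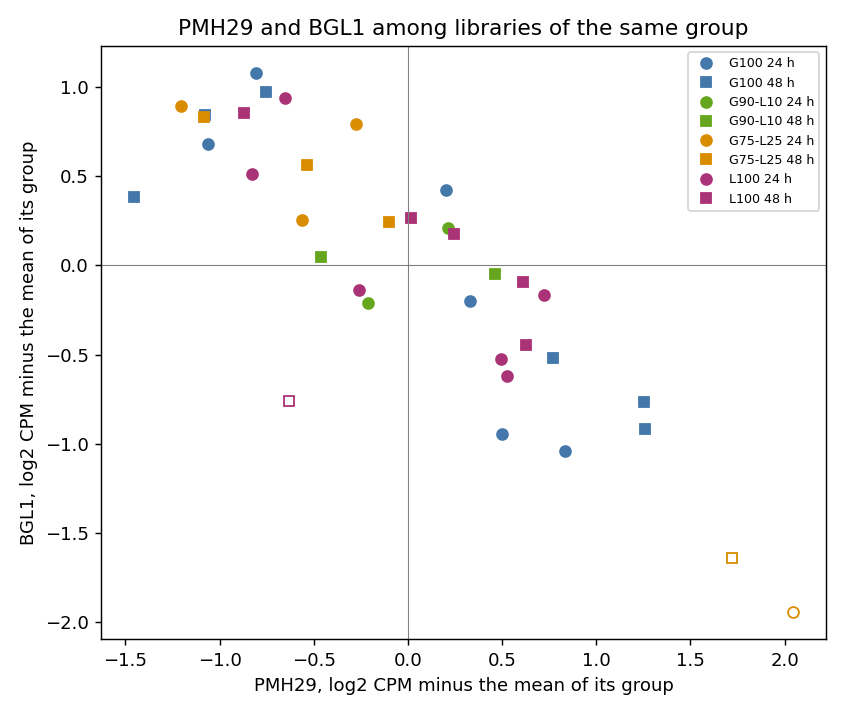
PMH29 (horizontal axis) and BGL1 (vertical axis) in 36 libraries, each as log2 CPM minus the mean of its group of feed and time (colours, circles 24 h, squares 48 h; open points stand apart). Libraries with PMH29 above their group mean mostly have BGL1 below it, with r = -0.85.

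The pairing of PMH29 with ACE3 and with the genes listed beside it was of the same sign. The study drew up this list from these same libraries, so the values below are a description. Over the list of 7, made up of ACE3, BGL1, the glycoside hydrolases CEL3E, CEL1B, CEL12A and BXL1 and the oxidative enzyme CEL61B, r with PMH29 within groups was negative for 7 of 7, from -0.85 to -0.09 with a median of -0.52. Over 33 libraries it ran from -0.84 to -0.65 with a median of -0.72. The median over all genes was -0.01 with 36 libraries. For ACE3 alone r was -0.48 (-0.72 over 33 libraries). Over 33 libraries some genes outside the list were negative, with -0.75 for ID 121121, -0.60 for XYR1, -0.58 for CLR2 and -0.44 for CBH1. IDs 72780 and 104061 had 0.20 and 0.02. Over 36 libraries ID 121121, XYR1, CLR2 and CBH1 had -0.13, 0.02, 0 and 0.11. In group medians ACE3 was high where PMH29 was low on G75-L25 at 24 h (1330 CPM against 256 CPM on G100). At 48 h the pure feeds did not follow this pattern: L100 had the higher median of ACE3 (589.9 CPM against 297 on G100) and the higher median of PMH29 as well.

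Across all 36 libraries, the genes most like each member in log2 CPM were taken by Pearson r, 3 for each. For ID 121121 they were ID 46816, the beta-glucosidase CEL3D (r = 0.990), and IDs 69944 (r = 0.986) and 57179 (r = 0.984), glycoside hydrolases of 2 other families. It had 342 genes above an r of 0.9, so these 3 are the upper end of a large group that follows lactose. Its r was 0.96 with XYR1 (ID 122208), 0.94 with CLR2 (ID 26163), the counterpart of a cellulase regulator of Neurospora crassa, and 0.96 with CBH1. With group means taken out these 3 were 0.94, 0.93 and 0.91 over 36 libraries, but 0.63, 0.50 and 0.47 over 33. Much of the likeness within groups thus rested on the libraries left out. Of those, ID 121121 itself stands apart only in the library labelled L100 48 h replicate 3. CEL3D went from 0.974 to 0.812 in the same way.

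For PMH29 the most alike genes were IDs 74214 (r = 0.909), 70527 (r = 0.904) and 3488 (r = 0.891), to which the sources used here give no function. Only 2 genes passed an r of 0.9. With group means taken out the 3 kept an r of 0.879, 0.902 and 0.912, so they followed PMH29 among libraries of a group as well. ID 3488 had 116 CPM in replicate 4 of G75-L25 at 24 h, the highest of its group, whose median was 3.58 CPM.

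For ID 72780 the most alike were IDs 66433 (r = 0.927), 22891 (r = 0.925) and 124119 (r = 0.921), and 6 genes passed an r of 0.9. Their differences on L100 against G100 at 24 h were smaller than its own 1.36 ± 0.24, with log2 fold changes of 0.43 ± 0.12, 0.31 ± 0.07 and 0.74 ± 0.18. With group means taken out their r was 0.838, 0.732 and 0.923 (0.666, 0.579 and 0.822 over 33 libraries). By Spearman's rho over 36 libraries, with group means kept, the likeness was 0.786, 0.782 and 0.812. For ID 104061 they were IDs 63727 (r = 0.882), 64066, a putative acetyltransferase (r = 0.875), and 73248 (r = 0.861), with no gene above 0.9. Taking out the group means lowered these to 0.649, 0.407 and 0.416 (0.597, 0.266 and 0.273 over 33 libraries).

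Positions in the RefSeq annotation of QM6a gave each member up to 3 neighbours on either side, looked up after the values were seen. ID 121121 lies directly beside CEL3D, its most alike gene, and 2 genes from ID 46819, the putative sugar transporter CLP1. On L100 against G100 at 24 h their log2 fold changes were 2.38 ± 0.24, 3.26 ± 0.33 and 3.22 ± 0.37. Among 7686 adjacent pairs of tested genes the median r was 0.134, and 0.0651% of pairs had an r as high as the 0.990 of ID 121121 and CEL3D. CEL3D had already been picked by its r, so a small share follows from that choice and nothing is read from it. The gene on its other side, ID 76659, had an r of 0.622 and a log2 fold change of 0.94 ± 0.19.

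ID 72780 likewise lies directly beside ID 124119, one of its most alike genes, and 1.5% of adjacent pairs had an r as high as their 0.921. That gene too had been picked by its r, so nothing is read from this share. ID 104061 lies 3 genes from CEL5A (ID 120312), the endoglucanase EGL2, and 2 genes from ID 104059, a putative short chain dehydrogenase. These were higher on L100 than on G100 at 24 h by 5.09 ± 0.47 and 3.45 ± 0.76 (log2), the opposite direction to the -1.68 ± 0.32 of ID 104061 between the same groups. On its other side the adjacent gene, ID 56845, had a log2 fold change of -0.51 ± 0.49, and IDs 57045 and 104064 beyond it were higher by 1.58 ± 0.29 and 1.58 ± 0.40. The genes on either side of PMH29, IDs 108721 and 108723, did not pass the filter on low counts.

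**Figure D5:**
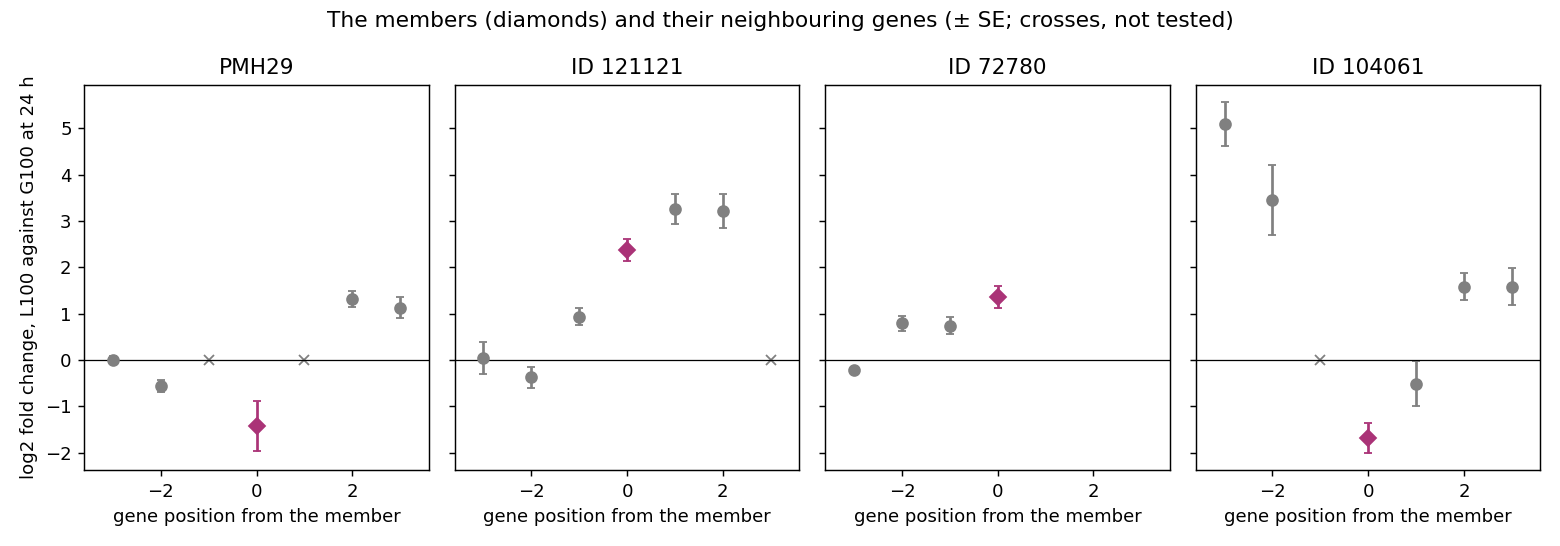
Log2 fold change of L100 against G100 at 24 h (vertical axis, ± SE) for each member (diamond) and up to 3 genes on either side in the RefSeq order of QM6a (horizontal axis, position in genes; crosses at 0 were not tested). ID 121121 sits with 2 neighbours above 3, and ID 104061 and the adjacent ID 56845 lie below 0, while the 4 other tested neighbours of ID 104061 lie at 1.58 or higher.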

How the data were processed

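The authors sequenced stranded libraries of poly(A) RNA and deposited for each of 36 libraries the whole-number count of reads on 9129 genes of the T. reesei annotation version 2, without normalization. The submitters' processing notes name bcl2fastq 2.17.1.14, Bowtie and HTSeq 0.5.3. How reads common to near-identical genes were assigned follows the authors' counts. Total counts ran from 9955798 to 49808747. Groups came from the labels.

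Counts were fitted with edgeR 4.0.16 in R 4.3.3 (filterByExpr with a minimum count of 10, TMM, quasi-likelihood) in 1 model with a mean for each of 8 groups, and p-values were adjusted by Benjamini-Hochberg over 8347 genes. Replicate spread is that between independent cultures as the labels describe them. CPM used TMM factors, and log2 CPM a prior count of 2. A count of 3 or fewer was taken as the floor, which covers counting error only. The 9072 IDs found in RefSeq gave gene spans and neighbours.

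The members and gene lists were chosen with earlier results of these data known, as were the 3 libraries left out in the set of 33. Genes named are the members, XYR1, CLR2, ACE3, CBH1, the 3 most alike genes of each member and, of the other listed factors, the one with the largest called change with time in each direction and feed. BGL1, the neighbours and the listed factors called with the 33 libraries alone were named after their values were seen. Alternatives were DESeq2 1.42.0, RLE, library size alone, other filters, only the 2 groups compared, the 33 libraries, adjusted p below 0.001 with an absolute log2 fold change above 2, each library left out in turn, and for likeness a prior count of 0.5 or Spearman's rho. The fit was tested on simulated data.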

Additional observations from a re-analysis of the deposited data

Results flagged for a closer look

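Within groups of 4 or more libraries, the highest or lowest library of each member was compared with the range of its group by Dixon's ratio, over 24 combinations of member and group, of which chance gives about 1 in 20. There was 1 such value, and no member was flagged in the G75-L25 libraries that were left out. ID 121121 had 24.4 CPM in the library labelled L100 48 h replicate 3, while the other 5 libraries of that group held 139 to 160 CPM, and the gap made up 0.927 of the range on the log2 scale. The same library had CBH1 at the level of G100. What sets it apart was not tested.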

How the results depend on the processing

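No paired analysis was possible because the labels give no replicate numbers and name no culture. The count of members called with time, 0 of 4 on each feed, moved to 2 on G100 (IDs 72780 and 104061) when only the 2 groups compared were fitted, and on L100 to 2 without the 3 libraries and to between 0 and 1 with each library left out in turn, the 1 being ID 104061 without L100 24 h replicate 4 or L100 48 h replicate 3. The genes called on G100, 779, became 264 with library size alone, 2108 with only the 2 groups, 1596 without the 3 libraries and 7 at the stricter threshold, and ran from 486 (without G100 24 h replicate 1) to 768 with libraries left out. On L100, 1639 became 539 with only the 2 groups, 2750 without the 3 libraries and 2 at the stricter threshold. On G75-L25, 22 became 59 with DESeq2, 9 with library size alone, 126 without the 3 libraries and 2 at the stricter threshold, and ran from 9 to 71, the highest without G75-L25 48 h replicate 4. On G90-L10, 8 became 25 with DESeq2, 5 with RLE, 3 with library size alone, 4 with at least 10 counts in every library, 0 with only the 2 groups, 41 without the 3 libraries and 1 at the stricter threshold, and ran from 1 to 13, where a group of 1 library is assumed to vary like the others. The cause of these moves was not tested.

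Changes with time that turned their sign were all short of the threshold. On G90-L10, libraries left out in turn gave -0.74 to 0.20 (log2) for PMH29, -0.19 to 0.10 for ID 121121, -0.52 to 0.06 for ID 72780 and -0.84 to 0.20 for ID 104061. On G75-L25 they gave -1.15 to 1.02 for PMH29, -0.07 to 0.07 for ID 121121 and -0.35 to 0.39 for ID 104061, and without the 3 libraries 0.08 for PMH29 and -0.08 for ID 121121, whose value was -0.01 with library size alone and 0.00 with every gene of at least 1 count or with only the 2 groups. On L100, ID 121121 ran from -0.27 to 0.03 with libraries left out and was 0.02 without the 3. With at least 10 counts in every library ID 104061 is not tested. Of 753 recomputed feed differences, 725 moved by less than the SD within groups, 28 moved further and 0 of those without overlap turned their sign. Of 36 recomputed likenesses, 33 moved by less than 0.1, and the other 3 were the genes most like ID 72780 by Spearman's rho (0.786, 0.782 and 0.812). The depth limits ID 104061, with at most 34 counts in a library.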
